A study of Mus musculus with 6 samples.

Results

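The core and general pluripotency genes Pou5f1, Sox2, Sall4, Zfp42, Lin28a, Lin28b, Trim71, L1td1, Utf1 and Fbxo15 were followed in 6 RNA-Seq libraries of mouse embryonic stem cells (mESCs). They were chosen by symbol, as genes used in both naive and primed pluripotency, with Zfp42 added. They are 10 of the 43309 genes in the count table. All 10 were among the 16823 genes tested, which had at least 10 counted fragments in at least 1 library.

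The libraries were made from poly(A) RNA with a kit that keeps the strand, and 3 came from each group. The control lines are labelled Zbtb24 wild-type with the alleles 2lox/+, so they carry 1 allele flanked by loxP sites. The other lines are labelled Zbtb24 knockout with the alleles 1lox/1lox, in which 1lox is the allele left by recombination between loxP sites. Both groups have the J1 (129SV) background and were grown in serum-containing medium on gelatin, without feeder cells. Each library came from 1 independently derived clone, so p-values measure the spread between clones together with that of library preparation. Zbtb24, the targeted gene, had 510, 512 and 489 counted fragments in control lines 1 to 3 and 888, 925 and 1039 in the lines labelled knockout. Its whole-gene count was thus higher, not lower, in every line labelled knockout (log2 fold change 0.99, SE 0.050, adjusted p = 4.32e-23 by edgeR's quasi-likelihood test). The label names alleles and not an RNA level, and a count of the whole gene does not show which exons were read. The loss of Zbtb24 was therefore not tested by these counts. Directions below therefore compare the libraries labelled knockout with the control libraries.

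Pluripotency is the ability of a cell to form all tissues of the embryo. OCT4 (the product of Pou5f1) and SOX2 bind DNA side by side at many enhancers and, with SALL4, keep the genes of the undifferentiated state active. LIN28A and LIN28B are RNA-binding proteins that block maturation of the let-7 microRNAs, and Lin28a, Lin28b and Trim71 are themselves among the best known mRNAs that let-7 represses.

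These genes changed in both directions. Pou5f1, Sox2 and Utf1 were higher in the libraries labelled knockout, and Sall4, Zfp42, Lin28a, Lin28b, Trim71, L1td1 and Fbxo15 were lower. The log2 fold changes ran from -0.77 for Zfp42 to 0.43 for Sox2, and 8 of the 10 were under 0.5 in size. So were 10526 of the 16823 genes tested and 4538 of the 5442 that averaged at least 1000 counts. All 10 passed an adjusted p of 0.05, but 69.5% of all genes tested did so too (34.4% higher and 35.2% lower), and 79.3% of the genes that averaged at least 1000 counts, a class that holds all 10. The groups did not overlap in scaled counts for any of the 10, and this held for 71.5% of all genes tested. The median size of change was 0.39 for the 10 genes, 0.33 for all genes tested and 0.19 for the abundant genes averaging at least 1000 counts. The signed medians were -0.20, -0.00036 and 0.044. Libraries of a group, each from 1 clone, agreed closely, with a coefficient of variation of 2.00% beyond counting error. When the dispersion was set to 0.04 for all genes, at which 25.8% of all genes were called, Zfp42 was the only one of the 10 called. Against a minimum log2 fold change of 0.5, which 24.9% of all genes passed, Zfp42 was again the only one.

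**Figure D1:**
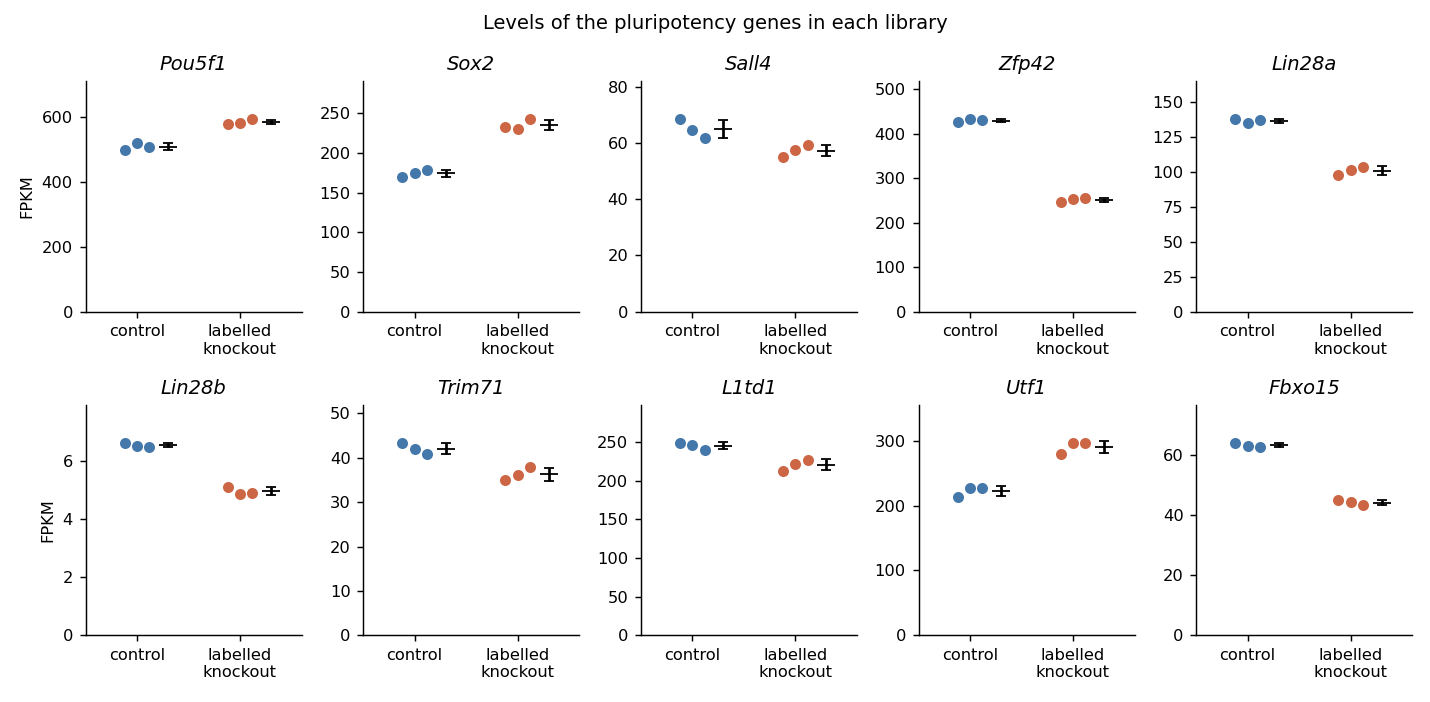
Level of each pluripotency gene, in fragments per kilobase of exon scaled to library size (FPKM, vertical axes from 0), in the 3 control libraries (blue) and the 3 libraries labelled knockout (orange). Points are libraries, and bars beside them give the mean and SD. In every panel the groups are separate, with Pou5f1, Sox2 and Utf1 higher and the other 7 genes lower in the libraries labelled knockout.

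Pou5f1 (ENSMUSG00000024406, chr17:35506018-35510772, plus strand, mm10) encodes the POU-domain factor OCT4, without which pluripotent cells are lost. It had the highest level per length of the 10 genes in both groups. Its FPKM was 500.0, 521 and 508 in control lines 1 to 3 and 581, 581 and 593 in the lines labelled knockout. Each of the latter lay above every control line. The means were 509.9 ± 10.8 and 585 ± 7.06 (SD, n = 3 each), and the log2 fold change was 0.20 (SE 0.022, adjusted p = 2.79e-11 by edgeR's quasi-likelihood test), a rise of 14.8%. The size depends on processing: the log2 fold change was 0.15 with raw library totals and 0.30 with a correction for GC content and length. Pou5f1 stood in the top 0.389% of genes by FPKM among the controls and in the top 0.293% among the lines labelled knockout. Pou5f1 is known to have processed copies elsewhere in the genome, and fragments that mapped to several places were discarded, so its level is uncertain to that extent.

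Sox2 (ENSMUSG00000074637, chr3:34650405-34652461, plus strand) is a gene of a single exon for the HMG-box factor that partners OCT4. Its FPKM was 170.0, 175 and 179 in the control lines and 233, 231 and 242 in the lines labelled knockout. All of the latter were higher than all controls. From means of 175 ± 4.60 and 235 ± 6.15 (SD, n = 3 each), the log2 fold change was 0.43 (SE 0.025, adjusted p = 5.74e-21 by edgeR), the largest rise among the 10 genes.

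The ratio of the partners was lower in each line labelled knockout than in any control. Per length, Pou5f1 stood 2.95, 2.98 and 2.84 times as high as Sox2 in the control lines and 2.49, 2.52 and 2.45 times as high in the lines labelled knockout. These sizes, but not their difference between groups, depend on the length used. Summed exons have 2248 bases in Pou5f1 and 2057 in Sox2, and the longest transcripts have 1362 and 2057. The log2 ratio differed by -0.23 between the groups, which did not overlap (two-sided exact permutation test, p = 0.1, which is the smallest that 3 lines against 3 allow; p = 0.2 adjusted over the 2 ratios tested). This ratio is taken within a library and does not depend on how libraries were scaled. It can depend on corrections made gene by gene. With the correction for GC content and length, the log2 fold changes were 0.30 for Pou5f1 and 0.39 for Sox2, against 0.20 and 0.43 without it. The 2 genes thus lay closer together, and the ratio was not tested in that setting.

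Sall4 (ENSMUSG00000027547, chr2:168748332-168767943, minus strand) encodes a zinc-finger factor that binds with OCT4 and holds back differentiation genes. Its FPKM was 68.3, 64.7 and 61.7 in the control lines and 55.0, 57.6 and 59.1 in the lines labelled knockout. The groups came closer to each other here than for the other core factors, with 61.7 as the lowest control and 59.1 as the highest line labelled knockout. The log2 fold change was -0.18 (SE 0.028, adjusted p = 1.84e-07 by edgeR), so that the third core factor fell while OCT4 and SOX2 mRNA rose.

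Zfp42 (ENSMUSG00000051176, chr8:43295063-43306980, minus strand) encodes REX1, a zinc-finger protein derived from the YY1 family and a widely used reporter of the naive state. It changed the most of the 10 genes. Its FPKM was 427, 432 and 431 in the control lines and 247, 254 and 255 in the lines labelled knockout, from 22596, 22354 and 22259 counted fragments against 12126, 11762 and 13533. The level in the lines labelled knockout was 0.586 times that of the controls, far outside the spread of either group (430.2 ± 2.90 and 252 ± 4.39, SD, n = 3 each). The log2 fold change was -0.77 (SE 0.023, adjusted p = 1.23e-32 by edgeR), and with the dispersion fixed at 0.04 the adjusted p was 0.0066.

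The genes beside Zfp42 fell as well. Of the 8 other tested genes that start within 2 Mb, 5 were lower, 0 were higher and 3 did not pass, and their median log2 fold change was -0.48. The 3 with the most fragments were Fat1, which encodes a giant cadherin, at -1.30 (SE 0.029, adjusted p = 1.03e-37), Asah1, an acid ceramidase gene, at -0.32 (SE 0.033, adjusted p = 2.65e-12), and Triml2, of the TRIM-like family, at -0.81 (SE 0.036, adjusted p = 1.83e-25 by edgeR). Triml2 begins 0.126 Mb from Zfp42, and 2 of the 8 genes, Fat1 and Triml2, fell further than Zfp42. The median was -0.37 over the 46 genes within 5 Mb and -0.23 over the 869 tested genes of chromosome 8, of which 463 were lower and 187 higher. A change of Zfp42 by itself and a change of its chromosome segment cannot be told apart from these counts.

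**Figure D2:**
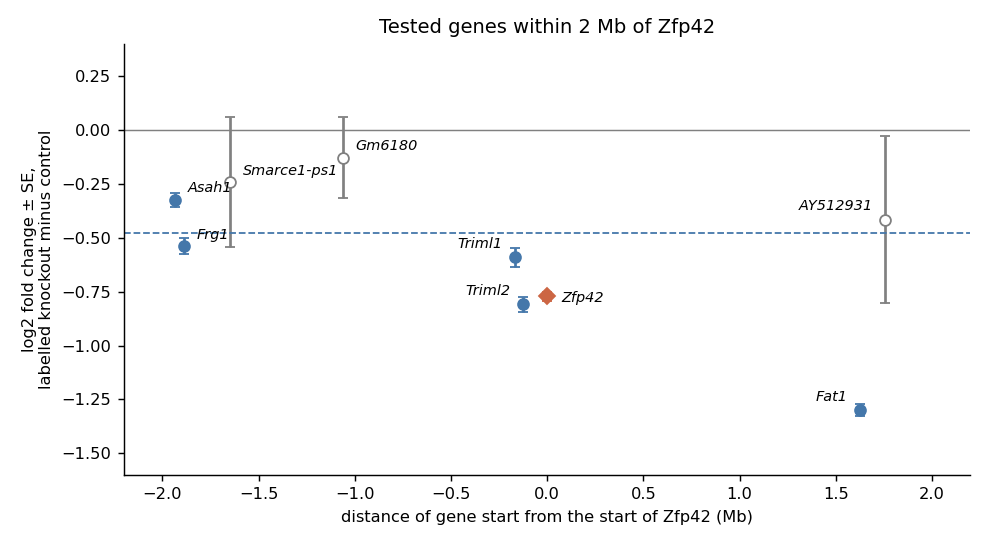
Log2 fold change ± SE (vertical axis) of Zfp42 (orange diamond) and of the 8 other tested genes that start within 2 Mb of its start, by distance in Mb (horizontal axis, along the chromosome). Filled points passed an adjusted p of 0.05, open points did not, and the dashed line is the median of the 8 genes, -0.48. Every point lies below 0.

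No other gene of the 10 had a neighbourhood with a median beyond 0.3 in size. The medians for the other 9 ran from -0.20 over the 6 genes around Fbxo15 to 0.21 over the 18 genes around L1td1. L1td1 fell while that median was above 0, though over the 55 genes within 5 Mb it was -0.047. The 4 genes within 1 Mb of Sox2 had a median of 0.52, against 0.035 over the 20 within 2 Mb. The medians of the other chromosomes that hold these genes ran from -0.081 (chromosome 7) to 0.016 (chromosome 18).

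**Figure D3:**
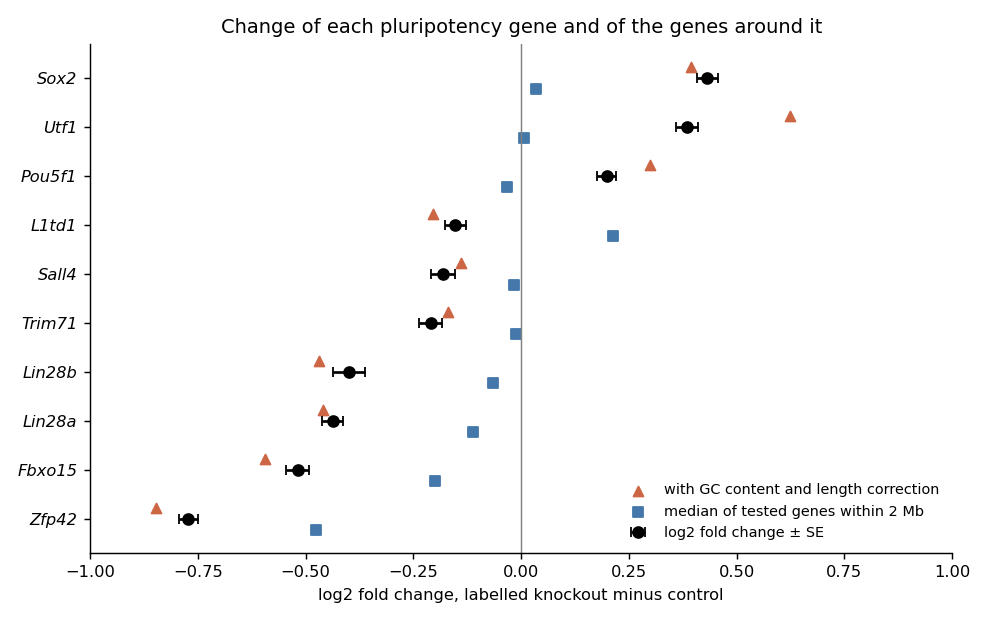
Log2 fold change of each of the 10 genes with its SE (black), the value after a correction for GC content and length (orange triangles) and the median of the other tested genes that start within 2 Mb (blue squares), horizontal axis in log2 units. Zfp42 is the lowest at -0.77 and has the lowest neighbourhood median, -0.48, and Utf1 moves most under the correction, from 0.38 to 0.62.

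The 4 genes for RNA-binding proteins all fell. Lin28a (ENSMUSG00000050966, chr4:134003330-134018841, minus strand) is the main LIN28 gene of mESCs. Its FPKM was 137, 135 and 137 in the control lines and 97.4, 101 and 104 in the lines labelled knockout. All lines of the second group lay below all controls, with a log2 fold change of -0.44 (SE 0.024, adjusted p = 1.45e-21 by edgeR).

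Lin28b (ENSMUSG00000063804, chr10:45376620-45486395, minus strand) encodes the paralogue, which can hold let-7 precursors in the nucleus. It was the least abundant of the 10 genes, in the top 37.5% of genes by FPKM in the control libraries, where the other 9 were all in the top 7.73%. Its FPKM was 6.59, 6.49 and 6.47 in the control lines and 5.09, 4.84 and 4.88 in the lines labelled knockout, from 1080 to 1682 fragments per library. The groups were well apart, and the log2 fold change was -0.40 (SE 0.037, adjusted p = 1.17e-13 by edgeR).

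The ratio of the LIN28 genes was not shown to differ. Per length, Lin28a stood 20.8, 20.7 and 21.2 times as high as Lin28b in the control lines and 19.1, 20.9 and 21.2 times as high in the lines labelled knockout. These sizes too depend on the length used. Summed exons have 3996 bases in Lin28a and 9065 in Lin28b, and the longest transcripts have 3505 and 5402. The groups overlapped, and the log2 ratio differed by -0.038 (exact permutation test, two-sided, p = 0.9, also after adjustment over the 2 ratios), with a spread between lines of 0.059. This design could not have reached a p of 0.05 for either ratio.

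Trim71 (ENSMUSG00000079259, chr9:114507133-114564369, minus strand), also called Lin41, encodes an RNA-binding ubiquitin ligase that represses mRNAs such as Cdkn1a. Its FPKM was 43.3, 41.9 and 40.8 in the control lines and 34.9, 36.1 and 37.9 in the lines labelled knockout. The lowest control stood above the highest line labelled knockout, and the log2 fold change was -0.21 (SE 0.026, adjusted p = 1.16e-09 by edgeR).

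L1td1 (ENSMUSG00000087166, chr4:98726734-98738480, plus strand) derives from the first open reading frame of a LINE-1 element and encodes an RNA-binding protein found with LIN28A. Its FPKM was 248, 246 and 239.9 in the control lines and 213, 221 and 227 in the lines labelled knockout. It changed the least of the 10 genes, by -0.15 (SE 0.024, adjusted p = 1.67e-07 by edgeR), though without overlap between the groups.

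Let-7 recognises its targets by its seed, bases 2 to 8 of the mature microRNA. Of the mouse let-7 entries in RefSeq's table, only let-7a-5p to let-7g-5p and let-7i-5p are covered here. They share the seed GAGGUAG, as does miR-98. A pair of them are shown with the seed in capitals (RefSeq, GRCm38.p6):
mmu-let-7a-5p: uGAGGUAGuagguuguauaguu
mmu-let-7g-5p: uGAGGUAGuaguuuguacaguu
The complement of the seed, CTACCTC, was searched on the sense strand of the 3′ UTR of each gene's longest coding transcript (GENCODE M21). It occurred at least once in 10.3% of 14463 coding genes tested. Among the 10 pluripotency genes it occurred in 4, with 2 matches in Lin28a, 4 in Lin28b, 4 in Trim71 and 1 in Sall4. The 3′ UTRs of these genes are long, with 2775 bases in Lin28a, 4445 in Lin28b, 5512 in Trim71 and 1697 in Sall4 against a median of 1097 over all genes. The first match in the 3 genes of the let-7 circuit is shown on the strand of the gene, with the match in capitals, beside that of Hmga2, the classic let-7 target.
Lin28a, chr4:134005188-134005212: tgcacagcctgttgaaCTACCTCat
Lin28b, chr10:45381021-45381045: cacccgggcgggaagtCTACCTCat
Trim71, chr9:114512471-114512495: caacattgcctaagtcCTACCTCag
Hmga2, chr10:120364223-120364247: cgccgacattcaatttCTACCTCag
All 4 pluripotency genes with a match fell, by -0.18 to -0.44. Of all 1487 genes tested with a match, 514 were higher, 577 were lower and 396 did not pass, with a median log2 fold change of -0.022, against -1.39e-05 for the 12976 genes without one. Mature let-7 has no poly(A) tail and was not measured in these libraries. A match is a run of letters and no evidence of a working site.

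The wider let-7 axis moved both ways. Among all genes tested, 34.4% were higher and 35.2% were lower, and 79.3% of those averaging at least 1000 counts were called. Of 25 genes (9 for microRNA processing or decay, 14 reported let-7 targets and 2 reported Trim71 targets), 14 were higher, 10 were lower and 1 did not pass, with a median of 0.11. Among the largest rises were those of Dis3l2, the exonuclease that degrades let-7 precursors tailed with uridine (1.13, SE 0.050, adjusted p = 3.30e-25), and Hmga1, a chromatin protein gene (0.50, SE 0.027, adjusted p = 5.05e-22). Among the falls, those of Hmga2 (-1.57, SE 0.053, adjusted p = 3.89e-30), Ago2, which encodes the slicing Argonaute (-0.80, SE 0.029, adjusted p = 2.69e-29), and Cdkn1a, the p21 gene, listed as a Trim71 target (-0.77, SE 0.047, adjusted p = 8.87e-20 by edgeR), were the largest. Hmga2 had 1200, 1126 and 1142 fragments in the control lines and 363, 314 and 437 in the lines labelled knockout. Reported targets of let-7 thus sat at both ends, with Hmga2 lower and its relative Hmga1 higher. Of the 9 genes of this list with a CTACCTC match, 4 were higher, 4 were lower and 1 did not pass.

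Utf1 (ENSMUSG00000047751, chr7:139943789-139945112, plus strand) and Fbxo15 (ENSMUSG00000034391, chr18:84934782-84981473, plus strand) are early known targets of OCT4 and SOX2, and they moved in opposite directions. Utf1 encodes a chromatin-associated factor. Its FPKM was 213, 227 and 227 in the control lines and 279, 296 and 296 in the lines labelled knockout. Every line labelled knockout stood above every control, and the log2 fold change was 0.38 (SE 0.027, adjusted p = 7.48e-18 by edgeR). Utf1 is short and rich in GC (1227 bases of exon, 63.5% GC), and a correction for GC content and length moved its value to 0.62. Its direction held, and its size depends on that choice.

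Fbxo15 encodes an F-box protein that is dispensable in mESCs and became a classic reporter of reprogramming. Its FPKM was 63.8, 62.8 and 62.6 in the control lines and 44.8, 44.2 and 43.2 in the lines labelled knockout. The lines of a group differed little, and the log2 fold change of -0.52 (SE 0.026, adjusted p = 4.35e-23 by edgeR) was the second largest fall of the 10. With the dispersion fixed at 0.04 its adjusted p was 0.097.

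Ordered by level per length, the controls ran Pou5f1, Zfp42, L1td1, Utf1, Sox2, Lin28a, Sall4, Fbxo15, Trim71 and Lin28b. Only Sall4 and Fbxo15 overlapped among neighbours in that order (64.9 ± 3.32 and 63.1 ± 0.623, SD, n = 3). Among the lines labelled knockout the order was Pou5f1, Utf1, Zfp42, Sox2, L1td1, Lin28a, Sall4, Fbxo15, Trim71 and Lin28b, with no overlap between neighbours. Zfp42 went from the second to the third place, L1td1 from the third to the fifth, Utf1 from the fourth to the second and Sox2 from the fifth to the fourth. Part of the order depends on the length used: with the longest transcript in place of the summed exons, Fbxo15 stood at 83.7 and Sall4 at 70.8 in the controls, and L1td1 at 238 and Sox2 at 235 in the libraries labelled knockout. Together the 10 genes took 0.499 to 0.505% of all counted fragments among the controls and 0.442 to 0.458% among the lines labelled knockout. In bulk libraries, fewer cells with an mRNA and less of it per cell cannot be told apart.

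RefSeq's promoter windows (GRCm38.p6, 250 bases before to 50 after each start) were found for 8 of the 10 genes. Pou5f1 had 2 windows. The starts used here are RefSeq's, which can differ from the GENCODE M21 coordinates given above. The Sox2 window, chr3:34649745-34650044, ends before the M21 start of Sox2 at 34650405. The Lin28b window, chr10:45470152-45470451, and the second window of Pou5f1, chr17:35508557-35508856, lie inside the M21 spans of these genes. The octamer ATGCAAAT, which POU factors bind, was searched on both strands and occurred in 1.74% of 32851 windows, among them that of Zfp42. Its first 7 letters, ATGCAAA, occurred in 4.63% and were found in Sox2 and, within the octamer, in Zfp42. The letters CATTGT, a core bound by SOX factors, occurred in 12.6% and were found in Lin28a and in the second window of Pou5f1. CAGGACCT, a motif described for ZBTB24, occurred in 1.99% and was found in Utf1. The GC box GGGCGG, read by SP factors, occurred in 35.7% of windows and in 6 of the 8 genes. The letters TATAAA occurred in 13.6% and in 0 of the 8. A stretch of 60 bases is shown for each of the 3 genes with a rarer match, on the strand of the gene and upstream of its start, since they include the strongest fall and the strongest rises. Capitals mark the match, which in Zfp42 and Utf1 is on the opposite strand and so reads as its complement.
Zfp42, chr8:43307162-43307221, match 186 bases before the start: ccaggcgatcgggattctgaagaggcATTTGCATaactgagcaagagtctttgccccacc
Sox2, chr3:34649870-34649929, match 99 bases before the start: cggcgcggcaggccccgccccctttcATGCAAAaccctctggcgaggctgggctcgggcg
Utf1, chr7:139943606-139943665, match 224 bases before the start: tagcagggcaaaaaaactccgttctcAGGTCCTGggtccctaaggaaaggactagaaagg
The octamer letters thus stood both upstream of Zfp42, which fell, and, as the shorter core, upstream of Sox2, which rose. The windows also differed in CpG content, with 27 CpG in Sox2, 19 in Trim71, 17 in Utf1, 14 in L1td1, 11 in Zfp42, 10 in Lin28a, 8 in Lin28b and 11 and 6 in the windows of Pou5f1 against a median of 7 over all windows. These are descriptions of letters, and no binding was measured.

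Around OCT4 and SOX2, the largest changes were rises of naive-state factors. Of 20 partner, regulator and target genes of the network, 12 were higher, 5 were lower and 3 did not pass, with a median of 0.22. All 20 averaged at least 1000 counts, and 79.3% of all such genes were called. Nanog, the homeobox factor of the core circuit, had 11989, 11539 and 11526 fragments in the control lines and 23971, 22602 and 26280 in the lines labelled knockout (1.13, SE 0.023, adjusted p = 1.20e-39). Klf4 (1.90, SE 0.030, adjusted p = 2.95e-44) and Esrrb (1.16, SE 0.023, adjusted p = 1.30e-39 by edgeR), both naive-state factors, rose further. Each of these rises was larger than any change among the 10 genes. Falls were smaller, with Lefty1, a Nodal antagonist, at -0.53 (SE 0.033, adjusted p = 1.54e-19), Rest, a repressor of neuronal genes, at -0.48 (SE 0.025, adjusted p = 9.61e-23), and Tcf7l1, which represses this network, at -0.40 (SE 0.030, adjusted p = 1.13e-16 by edgeR). Nanog lies on chromosome 6, and the 34 tested genes within 2 Mb of it had a median of 0.56, with Slc2a3, a glucose transporter gene (1.53), Phc1, a Polycomb gene (0.30), and M6pr, a sorting receptor gene (0.59), as the most abundant (all with adjusted p of at most 2.22e-16 by edgeR). Phc1 and Gdf3 (0.25), which start in this stretch, are also among the 20 genes and among those counted as higher. Gdf3 was named after its values were seen. For Nanog, Phc1 and Gdf3, a change of the gene by itself and a change of the chromosome segment cannot be told apart from these counts.

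Relatives of the 10 genes by sequence family gave no common direction. Of 14 relatives in the POU, SOX, SALL, YY1 and TRIM-NHL families, 13 were tested, of which 3 were higher, 5 were lower and 5 did not pass, with a median of -0.057. The share called among all genes tested was 69.5%. Yy2, an X-linked relative of Zfp42, was at 0 fragments in every library. Fragments with several locations or genes were discarded, and exons shared with other genes were not checked for Yy2. Its count of 0 need not mean that it was silent. Pou3f1 (OCT6) fell the most, from 892, 888 and 905 fragments in the control lines to 170, 193 and 178 in the lines labelled knockout (-2.24, SE 0.064, adjusted p = 5.13e-33). Sall2 fell by 1.46 on the log2 scale (SE 0.063, adjusted p = 9.58e-26) and Trim2 by 0.85 (SE 0.035, adjusted p = 1.63e-26). The rises among relatives with at least 100 counts were those of Sox21 (0.42, SE 0.092, adjusted p = 7.86e-05) and Sall1 (0.39, SE 0.024, adjusted p = 2.21e-19 by edgeR). Within the POU and SALL families 1 relative each went against the pluripotency member, with Pou5f1 at 0.20 against Pou3f1 at -2.24 and Sall4 at -0.18 against Sall1 at 0.39. Sall2 fell as Sall4 did, and the remaining POU and SALL relatives did not pass.

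**Figure D4:**
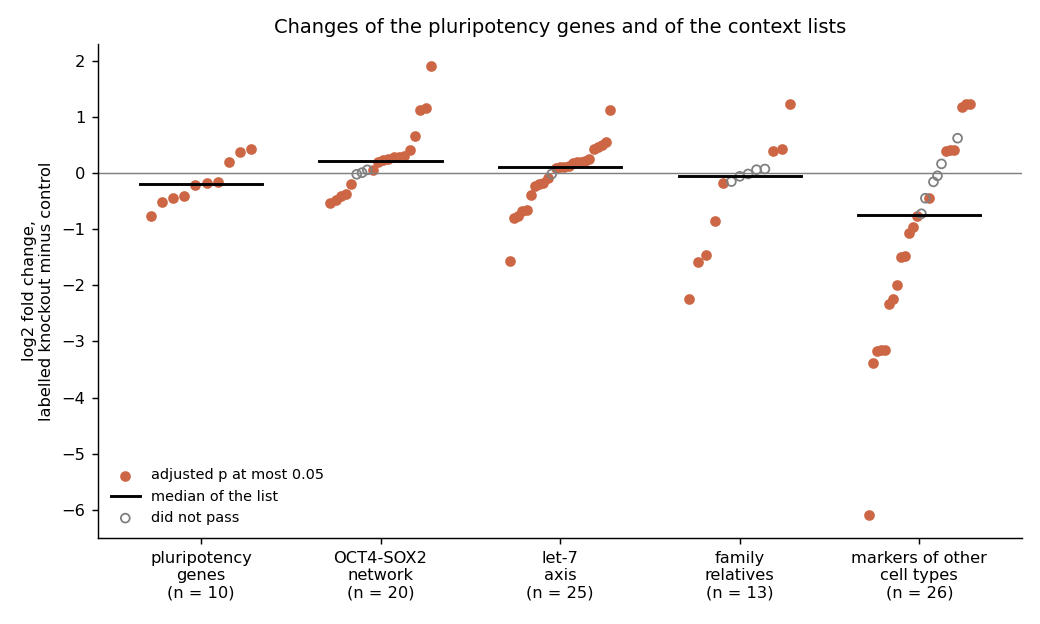
Log2 fold change (vertical axis) of each tested gene of the 10 pluripotency genes and of 4 context lists. Filled points passed an adjusted p of 0.05, open points did not, and lines are medians (-0.20, 0.22, 0.11, -0.057 and -0.74). The 10 genes have the narrowest full range, although their median size of change, 0.39, is above the 0.30 of the OCT4-SOX2 network and the 0.23 of the let-7 axis. The lowest point is Postn, which had 0 fragments in the libraries labelled knockout, so that its position depends on the prior count of the fit.

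Markers of other cell types moved with the groups as well. Among all genes tested, 34.4% were higher and 35.2% were lower. Of 28 markers, 26 were tested, of which 6 were higher, 14 were lower and 6 did not pass, with a median of -0.74, unchanged when the 3 markers at 3 or fewer fragments in every library of a group were set to their bound. Their summed level was 420.0 to 432 CPM (counts scaled to library size) among the controls and 366 to 375 among the lines labelled knockout. The 6 fibroblast markers tested were all lower, and the summed level of the list was 56.0 to 59.5 CPM against 9.53 to 10.1. Most of the control sum was Col1a1, with a mean of 41.1 CPM among the controls and 3.93 among the lines labelled knockout. Col3a1, Postn and Dcn were near the floor, averaging 9.17, 4.33 and 4 fragments over all libraries. Among these defining markers, Lum was at 0 fragments in every library. Postn was at 0 in the libraries labelled knockout and had only 7, 8 and 11 fragments in the control lines. Neuroectoderm markers summed to 281 to 286 against 262 to 270.1 CPM and trophoblast markers to 69.4 to 71.1 against 78.4 to 80.5, each without overlap, but neither list moved one way. Of the 6 trophoblast markers, 2 were higher, 3 were lower and 1 did not pass, with a median log2 fold change of -0.89. Their sum was mostly Tfap2c (0.41), while Hand1 (-3.15), Gata3 (-1.48) and Cdx2 (-1.06) were lower. Of the 4 neuroectoderm markers, 2 were higher (Sox1 at 1.23 and Tubb3 at 0.42) and 2 were lower (Nes at -2.33 and Pax6 at -0.44). These markers were named after their values were seen. Extraembryonic endoderm markers (11.7 to 13.0 against 10.7 to 12.9 CPM) and mesendoderm markers (2.29 to 3.10 against 2.68 to 3.44) overlapped between the groups. Whether cells of other types were present, and whether they had a part in the changes of the 10 genes, was not tested. For scale, Pou5f1 alone stood at 1146 ± 24.2 CPM among the controls and 1315 ± 15.9 among the lines labelled knockout (SD, n = 3 each).

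**Figure D5:**
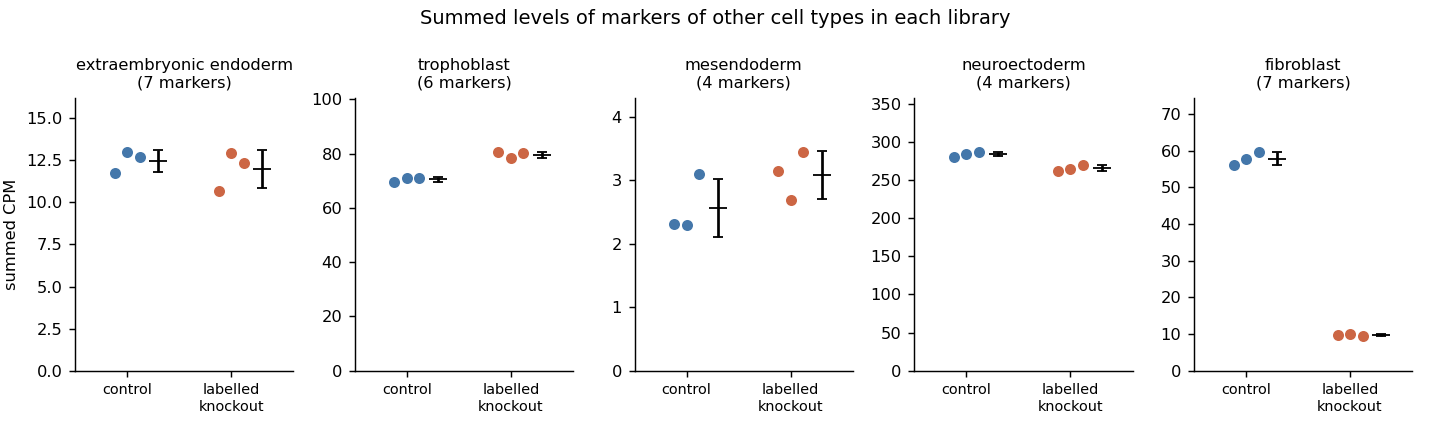
Summed level of the markers of each other cell type, in counts scaled to library size (CPM, vertical axes from 0), in the 3 control libraries (blue) and the 3 libraries labelled knockout (orange), with mean and SD beside the points. The fibroblast sum lies at 56.0 to 59.5 CPM in the controls and 9.53 to 10.1 CPM in the others, the trophoblast and neuroectoderm sums do not overlap between groups either although markers within each moved both ways, and the remaining sums do overlap.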

How the data were processed

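Fragments were counted in 6 TruSeq Stranded mRNA libraries (2 µg of RNA, 8 PCR cycles). The authors removed rRNA reads with Bowtie2 2.1.0, mapped the rest to mm10 with TopHat 2.0.10, and deposited raw counts per GENCODE M4 gene from htseq-count (HTSeq 0.6.1, union mode, sense strand), discarding fragments with several locations or genes. Library totals were 26987179 to 27754105 (control) and 25042261 to 28838924 (labelled knockout). All columns were matched to samples by name.

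Symbols, coordinates and exon lengths came from GENCODE M21 (42425 of 43309 genes matched). Genes with at least 10 counts in 1 library were tested in R 4.3.3 with edgeR 4.0.16 (TMM, glmQLFit, glmQLFTest, Benjamini-Hochberg over all 16823 genes, called at 0.05), and the SE is the log2 fold change divided by the square root of F. The fit was tested on simulated data. FPKM and CPM used TMM effective library sizes and, for FPKM, summed exon length. None of the 10 genes shares exon bases on its strand with another M21 gene. Ratios were compared by exact permutation tests. Replicate numbers come from the sample names. Deviations of same-numbered libraries correlated only weakly, at 0.014 to 0.076 over 12360 genes, and the libraries were not treated as pairs. Differently numbered libraries were not compared in this way, so pairing by number was not excluded. Each clone counted as 1 replicate because the lines were independently derived. Libraries of a group differed by more than sampling noise, which cannot tell differences between clones from those of library preparation.

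The genes and lists were chosen with earlier results of these data known. From each list, the 3 largest rises and falls among called genes averaging at least 100 counts were named, with Nanog and markers at 0. A gene that this rule names is not reported here. Around a gene, the 3 neighbours with the most counts were named where the median was beyond 0.3. The share called among genes averaging at least 1000 counts was added after the data were seen. Alternatives included DESeq2 1.42.0.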

Additional observations from a re-analysis of the deposited data

How the results depend on the processing

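Over the 19 alternatives to the test, scaling, filter, correction and libraries used, none of the 10 genes changed direction. Each kept its call in all of them except under a fixed dispersion or a minimum fold change (Zfp42 lost it only at a dispersion of 0.16). With the dispersion set for all genes to 0.04, to 0.16, or with a minimum log2 fold change of 0.5, in that order, 0, 0 and 0 of the 10 genes were called higher and 1, 0 and 1 lower. By edgeR's exact test or glmTreat, 0, 0 and 0 were higher and 2, 0 and 1 lower at an unadjusted p under 0.05 in these settings, and DESeq2 called 3 higher and 7 lower. The OCT4-SOX2 network had 4, 1 and 4 genes called higher and 0, 0 and 0 lower (2, 0 and 0 at an unadjusted p under 0.05), and the let-7 axis had 1, 0 and 2 higher and 5, 1 and 5 lower. Family relatives had 1, 0 and 1 called higher and markers of other cell types 3, 0 and 3. At a dispersion of 0.16, where 0 of the let-7 axis, relatives and markers were higher, 1, 1 and 3 had an unadjusted p under 0.05. At a dispersion of 0.16, 3 relatives and 8 markers were called lower, and 7 markers were lower with a filter at a mean of 50 counts, which tests fewer genes. Over all genes these settings called 4342, 1456 and 4195 in place of 11697. Under the replicate block, 3 of the 10 genes were higher and 7 lower, as without it, and no call among them changed. When 1 library was left out at a time, the log2 ratio of Pou5f1 to Sox2 differed by -0.25 to -0.22 and that of Lin28a to Lin28b by -0.066 to 0.0088, above 0 only without line 1 of those labelled knockout. The median around Zfp42 was -0.70 over the 2 genes within 1 Mb and -0.59 over the 5 averaging at least 100 counts.

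With 3 clones a group and a spread of 2.00%, small changes got very small p-values, so each call is to be read with its size. Counts per gene do not show exons, isoforms, protein or mature microRNAs. PCR copies of a fragment could not be told apart, so counting error is a lower limit.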
